A study of Mus musculus with 6 samples.

Results

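Kainate receptors and metabotropic glutamate receptors were followed as 9 genes out of the 31053 genes with a deposited value. They were 5 kainate receptor subunit genes (*Grik1*, *Grik2*, *Grik3*, *Grik4* and *Grik5*) and 4 metabotropic receptor genes (*Grm2*, *Grm3*, *Grm5* and *Grm7*), found by matching the Ensembl identifiers to mouse gene symbols. The measurement was EPR (edits per read), the number of C-to-U edits in a gene's mRNA divided by the number of its reads. Edits are left by rAPOBEC1, a cytidine deaminase, when it is fused to a ribosomal protein, a design named Ribo-STAMP that marks mRNAs bound by tagged ribosomes. Wild-type primary cortical neurons from C57BL/6J embryos of day E18 were infected at DIV 6 (days in vitro) with AAV carrying RPL10A-STAMP or RPL22-STAMP, with 3 libraries of each, and all received floxuridine at DIV 3 and doxycycline (1 µg per ml, 48 h) before collection at DIV 14. RPL10A and RPL22 both belong to the large ribosomal subunit, and the synapsin promoter drives the transactivator that doxycycline switches on, a promoter chosen for expression in neurons. Wells can hold several cell types, and which cells of a well gave the edits of a gene cannot be told apart here.

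Kainate receptors are glutamate-gated cation channels built from subunits of the *Grik* family, in which GluK1 to GluK3 can form channels by themselves and GluK4 and GluK5 need one of these as a partner. Metabotropic glutamate receptors are G protein-coupled receptors with a large extracellular glutamate-binding domain. Group I receptors, to which mGluR5 belongs, act through Gq and phospholipase C, whereas group II (mGluR2 and mGluR3) and group III (mGluR7) act through Gi/o and often lower transmitter release.

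rAPOBEC1 prefers a cytidine with A or U on both sides, so the letters of each mRNA set how many preferred sites it offers. The stretch of 90 coding bases most alike within each family is shown for 5 of the genes on which the comparisons below turn, because it lets the offered sites be compared over the same part of the protein. Capitals mark each C with A or T on both sides, counting the bases next to the stretch. For the kainate subunits the stretch, with a mean pairwise identity of 79.8% over the 5 genes, covers the third membrane segment, which forms the channel gate:

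*Grik2*, chr10:49240655-49240744, minus strand: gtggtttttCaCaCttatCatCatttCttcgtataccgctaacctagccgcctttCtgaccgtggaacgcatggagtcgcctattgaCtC

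*Grik3*, chr4:125694014-125694103, plus strand: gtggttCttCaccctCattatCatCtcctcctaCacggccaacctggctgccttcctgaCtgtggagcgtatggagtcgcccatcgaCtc

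*Grik5*, chr7:25015884-25015973, minus strand: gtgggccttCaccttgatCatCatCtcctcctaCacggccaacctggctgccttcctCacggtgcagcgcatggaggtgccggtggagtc

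For the metabotropic receptors the stretch, with a mean pairwise identity of 75.6% over the 4 genes, encodes the last intracellular loop and the start of the membrane segment after it:

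*Grm5*, chr7:88074769-88074858, plus strand: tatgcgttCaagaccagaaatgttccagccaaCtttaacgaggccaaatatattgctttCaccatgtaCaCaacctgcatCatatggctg

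*Grm7*, chr6:111358946-111359035, plus strand: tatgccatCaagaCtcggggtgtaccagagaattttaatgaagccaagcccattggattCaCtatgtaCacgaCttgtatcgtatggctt

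All coordinates are of GRCm38, and each sequence is an exonic, coding stretch given 5′ to 3′ on the strand of the gene. The stretch held 9 such sites among 26 cytosines in *Grik2*, 8 among 32 in *Grik3* and 6 among 31 in *Grik5*. It held 6 among 23 in *Grm5* and 6 among 19 in *Grm7*. Over whole coding sequences, the share of cytosines with A or T on both sides was highest in *Grik2* (34.2%), *Grik1* (33.3%) and *Grm3* (31.2%) and lowest in *Grik5* (17.02%) and *Grm2* (19.0%), with 28.0% in *Grm5*, 28.9% in *Grm7*, 25.2% in *Grik3* and 23.0% in *Grik4*. The median over the tested genes was 26.7%. Aligned coding sequences of paralogs were 72.0% identical between *Grik2* and *Grik3*, 70.6% between *Grik4* and *Grik5*, 66.4% between *Grm2* and *Grm3* and 53.1% between *Grm5* and *Grm7*. Runs of 50 identical exonic bases shared with any other gene numbered at most 36 of 8923 (*Grik3*), and none was found for *Grm2*, *Grm3* and *Grm7*.

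EPR was above 0 in all 6 libraries for 6 of the 9 genes, and these 6 entered the test across genes, which covered the 8046 genes edited in every library. *Grik4*, *Grm2* and *Grm3* were listed at 0 in at least 1 library and were not tested there. A 0 can mean a gene without edits or one without reads, and the reads behind each value are unknown, so no counting error can be given. For the test, each library was scaled by its median EPR, log2(scaled EPR + 0.01) was fitted with limma, and a gene was called at a Benjamini-Hochberg adjusted p under 0.05. The pseudocount of 0.01 shrinks the fold change of a gene whose EPR is low. Medians of EPR before scaling ran from 0.0120 to 0.0161 with RPL10A-STAMP and from 0.00907 to 0.0129 with RPL22-STAMP. Positive values mean higher EPR with RPL10A-STAMP. The methods call the replicates biological, but nothing in the labels ties them to separate cultures, so p-values measure the spread between these libraries, which may be technical.

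Of the 6 tested genes, 3 were higher with RPL10A-STAMP (*Grm7*, *Grm5* and *Grik2*) and 0 were higher with RPL22-STAMP by limma, while 3 did not pass (*Grik1*, *Grik3* and *Grik5*). At an unadjusted p under 0.05, too, 0 of the 6 were higher with RPL22-STAMP, by limma or by the test of the study's methods on unscaled EPR. Over all 8046 tested genes, 14.3% passed in either direction. RPL10A-STAMP gave the higher value in 8.51% and RPL22-STAMP in 5.77%. The number of all genes called, 1149, was 369 without RPL10A-STAMP replicate 3, 447 without RPL10A-STAMP replicate 2, 692 without RPL10A-STAMP replicate 1, 595 without RPL22-STAMP replicate 3 and 738 without RPL22-STAMP replicate 2, with 2 or 3 receptor genes called in each of these fits. The methods' test called 0 genes after adjustment (1996 at an unadjusted p under 0.05, among them 3 of the 6 receptor genes). The median log2 fold change was 0.43 over the 6 genes, against -0.01 over all tested genes. Both tested metabotropic genes passed, whereas 1 of 4 tested kainate genes did and the median of these 4 was -0.09. Outside this test were *Grm3* and also *Grm2*, for which every RPL22-STAMP library lay above every RPL10A-STAMP library. The difference between the families was not tested. Scaled libraries of the variants did not overlap for *Grik2*, *Grm5* and *Grm7*, a separation that 37.1% of all tested genes showed.

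**Figure D1:**
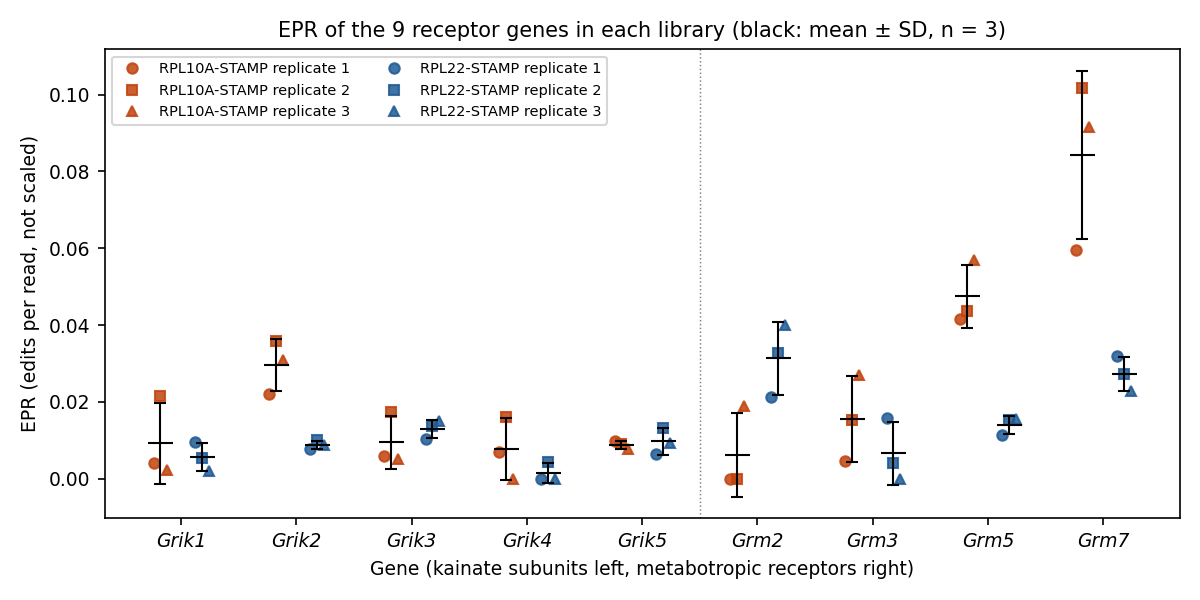
EPR (edits per read, not scaled, linear axis) of the 9 receptor genes in each of the 6 libraries, with RPL10A-STAMP in orange and RPL22-STAMP in blue, a symbol shape for each replicate number, and black bars for the mean ± SD (n = 3). For *Grik2*, *Grm5* and *Grm7* every orange point lies above every blue point, for *Grm2* every blue point lies above every orange point, and for the other 5 genes the points overlap.

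*Grm7* had the highest EPR of the 9 genes with RPL10A-STAMP. It encodes mGluR7, a group III receptor of presynaptic release sites, and spans chromosome 6, 110645581 to 111567230, plus strand. In the order of replicates 1, 2 and 3, as for all genes below, the RPL10A-STAMP libraries gave EPR of 0.0596, 0.102 and 0.0915, and the RPL22-STAMP libraries 0.0318, 0.0272 and 0.0230. The lowest RPL10A-STAMP library was well above the highest RPL22-STAMP library. Group means of 0.0843 ± 0.0219 and 0.0273 ± 0.00443 (SD, n = 3 each) stood at a ratio of 3.08 before scaling, and the geometric means of the scaled values at a ratio of 2.32. The log2 fold change was 0.99 (SE 0.206, 95% interval 0.51 to 1.47, limma adjusted p = 0.0232). *Grm7* ranked above 95.4%, 96.8% and 96.0% of the edited genes of the RPL10A-STAMP libraries and above 92.9%, 83.7% and 79.9% of those of the RPL22-STAMP libraries. The call was lost under 9 of 19 alternatives, more than for the other two, among them the fits without RPL10A-STAMP replicate 2 (limma adjusted p = 0.0789), RPL10A-STAMP replicate 3 (0.0774), RPL22-STAMP replicate 2 (0.0645) or RPL22-STAMP replicate 3 (0.0687), while the log2 fold change stayed at or above 0.89 in these fits. A gene on the other strand, *Gm20387*, overlaps 2.21% of its exonic bases.

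*Grm5* encodes mGluR5, the main group I receptor of cortical neurons, which sits around the postsynaptic density. Its locus is chromosome 7, 87584168 to 88134907, plus strand. The RPL10A-STAMP libraries gave EPR of 0.0417, 0.0437 and 0.0570, and the RPL22-STAMP libraries 0.0113, 0.0153 and 0.0155. All 3 RPL10A-STAMP values lay above all 3 RPL22-STAMP values, with means of 0.0475 ± 0.00831 and 0.0140 ± 0.00237 (SD, n = 3 each). The ratio of these means was 3.38, and that of the geometric means after scaling 2.58. The log2 fold change was 0.98 (SE 0.135, 95% interval 0.66 to 1.30, limma adjusted p = 0.00615), and the call held without each library in turn but not by the methods' test (adjusted p = 0.0793).

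*Grik2* was the kainate subunit that differed. It encodes GluK2, a channel-forming subunit with high expression in forebrain, and its mRNA is also known for A-to-I editing by ADAR enzymes, a different base change from the C-to-U edits counted here. Its locus is chromosome 10, 49094833 to 49788766, minus strand. The RPL10A-STAMP libraries gave EPR of 0.0222, 0.0357 and 0.0309, and the RPL22-STAMP libraries 0.00781, 0.009995 and 0.00878. The groups did not overlap, and their means were 0.0296 ± 0.00687 and 0.00886 ± 0.00110 (SD, n = 3 each), a ratio of 3.34. The ratio of the geometric means after scaling was 2.52. The log2 fold change was 0.82 (SE 0.132, 95% interval 0.51 to 1.13, limma adjusted p = 0.0105). *Grik2* stood above 77.2% to 83.2% of the edited genes of a library with RPL10A-STAMP and above 37.9% to 41.8% with RPL22-STAMP. Its transcript is poor in GC (37.9%), and the call was lost once each library's trend with GC content was removed, as described below, and by the methods' test (adjusted p = 0.0980).

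*Grik3* had the most negative fold change of the tested receptor genes. It encodes GluK3, a subunit of channels with low glutamate affinity, and spans chromosome 4, 125490700 to 125714173, plus strand. The RPL10A-STAMP libraries gave EPR of 0.00586, 0.0173 and 0.00526, and the RPL22-STAMP libraries 0.0105, 0.0137 and 0.0150. RPL10A-STAMP replicate 2 was above all RPL22-STAMP libraries and the other two RPL10A-STAMP libraries were below them, so the groups overlapped. The log2 fold change was -0.49 (SE 0.214, 95% interval -0.996 to 0.01, limma adjusted p = 0.171), which did not pass. Without RPL10A-STAMP replicate 2 it was -0.70 and still did not pass (limma adjusted p = 0.0556).

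*Grik5* encodes GluK5, the high-affinity partner subunit, and spans chromosome 7, 25009849 to 25072346, minus strand. The RPL10A-STAMP libraries gave EPR of 0.00977, 0.00916 and 0.00778, and the RPL22-STAMP libraries 0.00650, 0.0134 and 0.00945. The values interleaved. The log2 fold change was -0.22 (SE 0.146, 95% interval -0.56 to 0.13, limma adjusted p = 0.354). In this fit the interval leaves out a difference of the size fitted for *Grik2*. With the GC content trend removed, as described below, *Grik5* was at 0.19 and *Grik2* at 0.37, and neither passed (limma adjusted p = 0.432 and 0.116).

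*Grik1* had the widest interval of the 6 tested genes. It encodes GluK1, a channel-forming subunit known from interneurons, and spans chromosome 16, 87895900 to 88290265, minus strand. The RPL10A-STAMP libraries gave EPR of 0.00414, 0.0214 and 0.00232, and the RPL22-STAMP libraries 0.00949, 0.00542 and 0.00212. RPL10A-STAMP replicate 2 was far above the other two, and the SD exceeded the mean with RPL10A-STAMP (0.00930 ± 0.0105, against 0.00568 ± 0.00369 with RPL22-STAMP, SD, n = 3 each). The log2 fold change was 0.03 (SE 0.356, 95% interval -0.80 to 0.87, limma adjusted p = 0.963), and it changed sign under 7 of 19 alternatives, among them the fit without RPL10A-STAMP replicate 2 (-0.32).

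**Figure D2:**
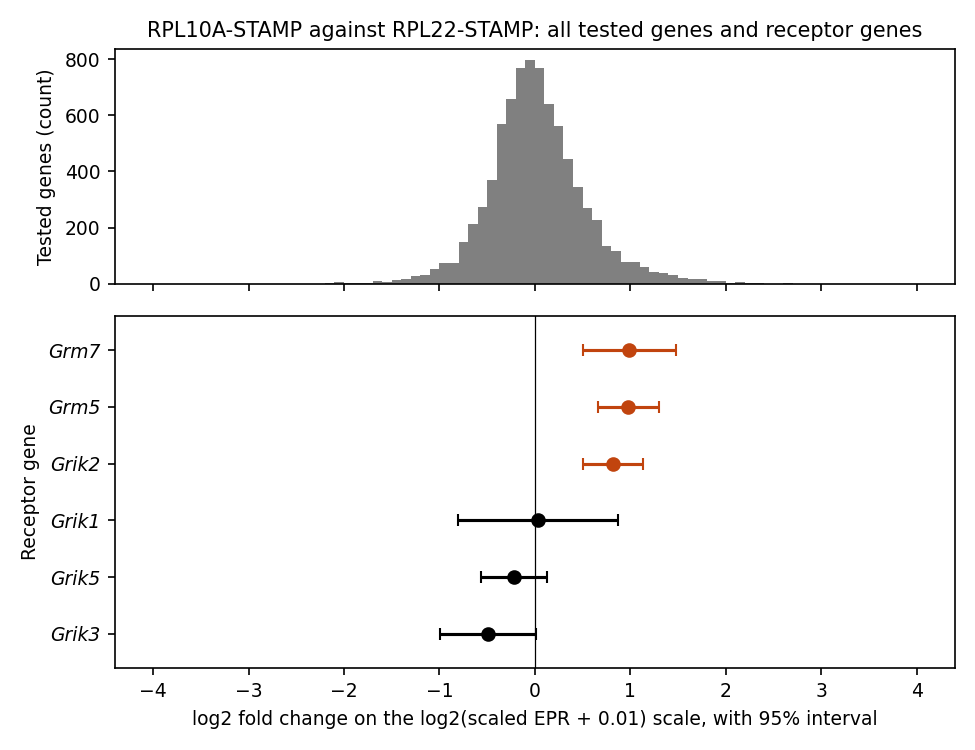
Top, number of tested genes by log2 fold change between the variants, positive where RPL10A-STAMP was higher (log2(scaled EPR + 0.01) scale), and bottom, the log2 fold change of the 6 tested receptor genes with its 95% interval from limma on the same axis, orange where the adjusted p was under 0.05. *Grm7*, *Grm5* and *Grik2* lie between 0.82 and 0.99 with intervals above 0, and the intervals of *Grik1*, *Grik5* and *Grik3* include 0.

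The 3 receptor genes outside the test were described by their EPR alone. *Grm2* encodes mGluR2, a presynaptic group II receptor, and spans chromosome 9, 106643095 to 106656082, minus strand. It was listed at 0 in RPL10A-STAMP replicates 1 and 2 and at 0.0189 in replicate 3, and its EPR was 0.0213, 0.0328 and 0.0400 in the RPL22-STAMP replicates. *Grm2* was thus the only one of the 9 genes with every RPL22-STAMP library above every RPL10A-STAMP library, and the difference had an exact permutation p of 0.10 (two-sided, the smallest that 3 libraries against 3 allow). When genes edited in at least 3 libraries were fitted instead, its log2 fold change was -1.73 (SE 0.389, 95% interval -2.68 to -0.78, limma adjusted p = 0.0541). This value did not pass and rests on how the zeros are read. *Grm2* met the wider filter through its RPL22-STAMP libraries, the group where it was higher, so the fit is no separate evidence of a difference. A gene on the other strand, *Gm28111*, overlaps 9.60% of the exonic bases of *Grm2*. With RPL22-STAMP *Grm2* had the highest mean EPR of the 9 genes, 0.0314 ± 0.00944 (SD, n = 3), although its range overlapped that of *Grm7*.

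*Grm3*, for the other group II receptor, mGluR3, which both neurons and astrocytes use, spans chromosome 5, 9485541 to 9725170, minus strand. The RPL10A-STAMP libraries gave EPR of 0.00467, 0.0152 and 0.0270, and the RPL22-STAMP libraries 0.0158, 0.00424 and 0. The values of the variants overlapped. *Grik4*, for the partner subunit GluK4, spans chromosome 9, 42518135 to 42944493, minus strand. It was listed at 0.00699, 0.0161 and 0 in the RPL10A-STAMP libraries and at 0, 0.00448 and 0 in those of RPL22-STAMP. Under the wider filter the log2 fold changes were 0.40 for *Grm3* (95% interval -0.79 to 1.59, limma adjusted p = 0.674) and 0.50 for *Grik4* (95% interval -0.35 to 1.34, limma adjusted p = 0.443), and both intervals include 0.

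The order of the genes by EPR differed with the variant. EPR is a quantity per read and says nothing of the amount of mRNA, and it was not corrected for the number of preferred cytosines. With RPL10A-STAMP the order of mean EPR was *Grm7*, *Grm5*, *Grik2*, *Grm3*, *Grik3*, *Grik1*, *Grik5*, *Grik4* and *Grm2*. Only the first 2 steps, from *Grm7* to *Grm5* and from *Grm5* to *Grik2*, lay between ranges that did not overlap. With RPL22-STAMP the order was *Grm2*, *Grm7*, *Grm5*, *Grik3*, *Grik5*, *Grik2*, *Grm3*, *Grik1* and *Grik4*, and only the step from *Grm7* to *Grm5* lay between ranges that did not overlap. *Grm7* above *Grm5* was thus shared, and *Grik2* moved from rank 3 to rank 6.

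Ratios of 2 genes in the same library do not depend on the overall level of editing of that library. They can still carry a trend of EPR with GC content, in which *Grik2* (37.9%) and *Grik3* (54.2%) differ, as described below. How much of such a trend lies in the ratios was not tested. *Grik2* over *Grik3* was 3.79, 2.06 and 5.88 where RPL10A carried the deaminase, and 0.745, 0.728 and 0.584 where RPL22 did. The more edited of these paralogs was therefore *Grik2* in every RPL10A-STAMP library and *Grik3* in every RPL22-STAMP library, the single pair of 15 whose order turned in this way. *Grik2* over *Grik5* was 2.27, 3.90 and 3.97 as against 1.20, 0.749 and 0.929, again without overlap. In 6 of the 15 pairs the variants did not overlap, each with an exact permutation p of 0.10 (0.25 adjusted over the 15 pairs), and each of these set one of the 3 called genes against *Grik3* or *Grik5*. These ratios come from the same values as the fold changes above, with no scaling involved. Pairs share genes, and the share of such pairs over all tested genes was not computed. Of single tested genes, 37.1% did not overlap between the variants after scaling, so the count is a description only. Among the 3 called genes all ratios overlapped between the variants. *Grik2* over *Grm5* was 0.532 to 0.818 with RPL10A-STAMP and 0.565 to 0.691 with RPL22-STAMP (exact permutation p = 0.80), and *Grm5* over *Grm7* was 0.430 to 0.699 and 0.355 to 0.675 (exact permutation p = 0.60).

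**Figure D3:**
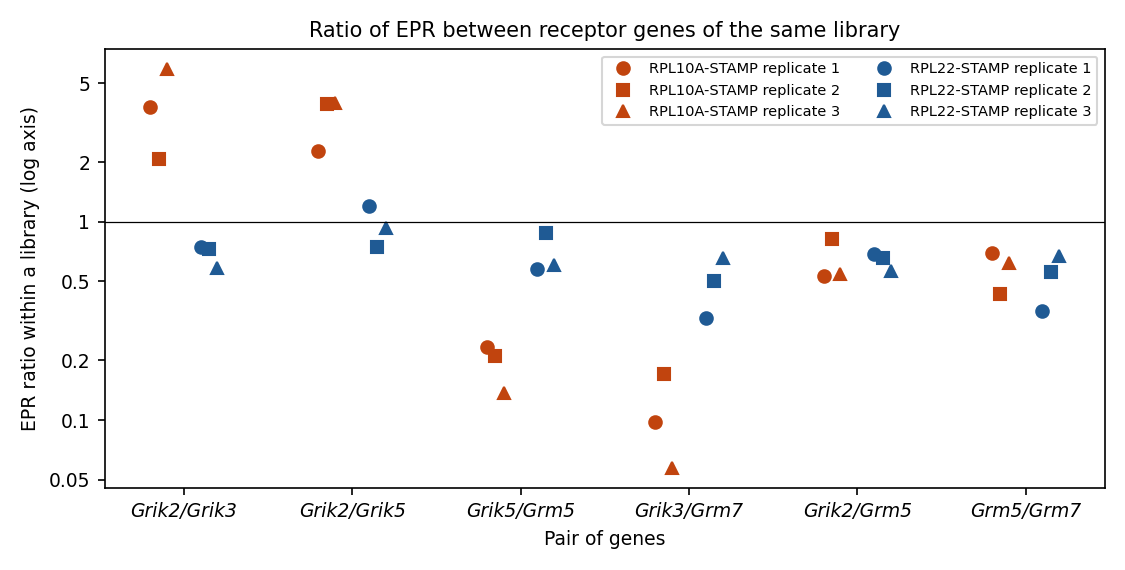
Ratio of EPR between 2 receptor genes of the same library (log axis, no unit) for 6 of the 15 pairs, with RPL10A-STAMP in orange, RPL22-STAMP in blue and a symbol shape for each replicate number. *Grik2*/*Grik3* lies above 1 in all RPL10A-STAMP libraries and below 1 in all RPL22-STAMP libraries, whereas *Grik2*/*Grm5* and *Grm5*/*Grm7* overlap between the variants.

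GC content of the transcript differed widely between the receptor genes. It was 37.9% for *Grik2*, lower than in all but 1.68% of the tested genes, 54.2% for *Grik3* and 62.3% for *Grik5*, higher than in 99.1% of them. *Grm5* (49.8%) and *Grm7* (50.9%) lay near the median of 48.9%. With each library's trend over GC content removed, the log2 fold change of *Grik2* was 0.37 (limma adjusted p = 0.116) and no longer passed, that of *Grik5* turned to 0.19 (limma adjusted p = 0.432) and that of *Grik3* was -0.26 (limma adjusted p = 0.482). *Grm5* and *Grm7* were still called, at 1.03 (limma adjusted p = 0.00911) and 1.09 (limma adjusted p = 0.0258). The annotated transcripts of *Grm5* differ in GC content, the longest one having 42.5%. With the longest transcript of each gene in place of the one with the longest coding sequence, an alternative chosen after the data were seen, the log2 fold change was 0.73 for *Grm5* and 0.96 for *Grm7*, and both passed.

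**Figure D4:**
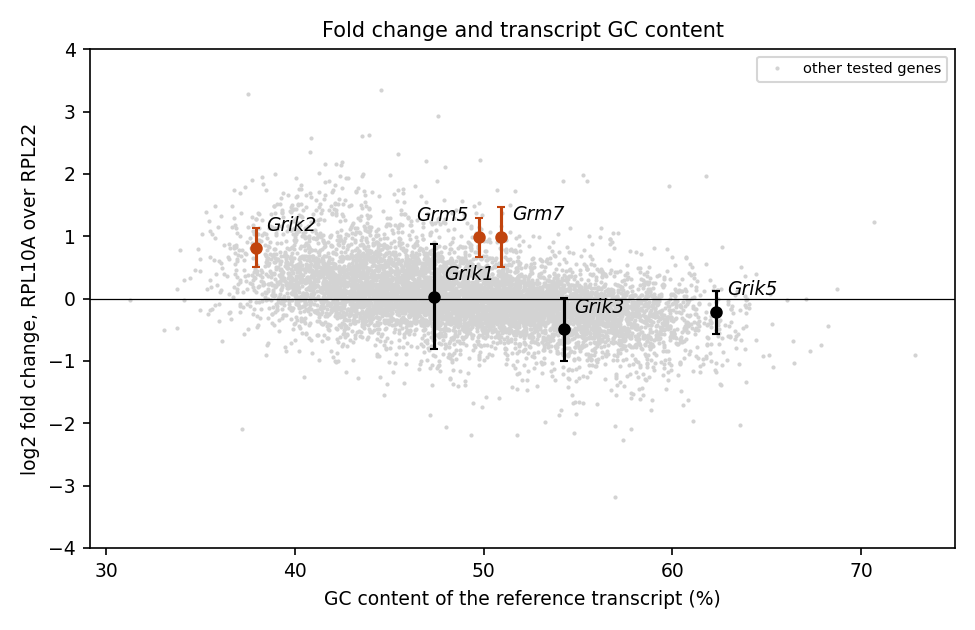
Log2 fold change between the variants, positive where RPL10A-STAMP was higher (log2(scaled EPR + 0.01) scale), against GC content of the transcript with the longest coding sequence (%), for the tested genes in grey and the 6 receptor genes with 95% intervals, orange where called. *Grik2* (37.9%) lies at the low-GC edge of the tested genes and *Grik5* (62.3%) at the high-GC edge, while *Grm5* (49.8%) and *Grm7* (50.9%) lie near the middle.

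**Figure D5:**
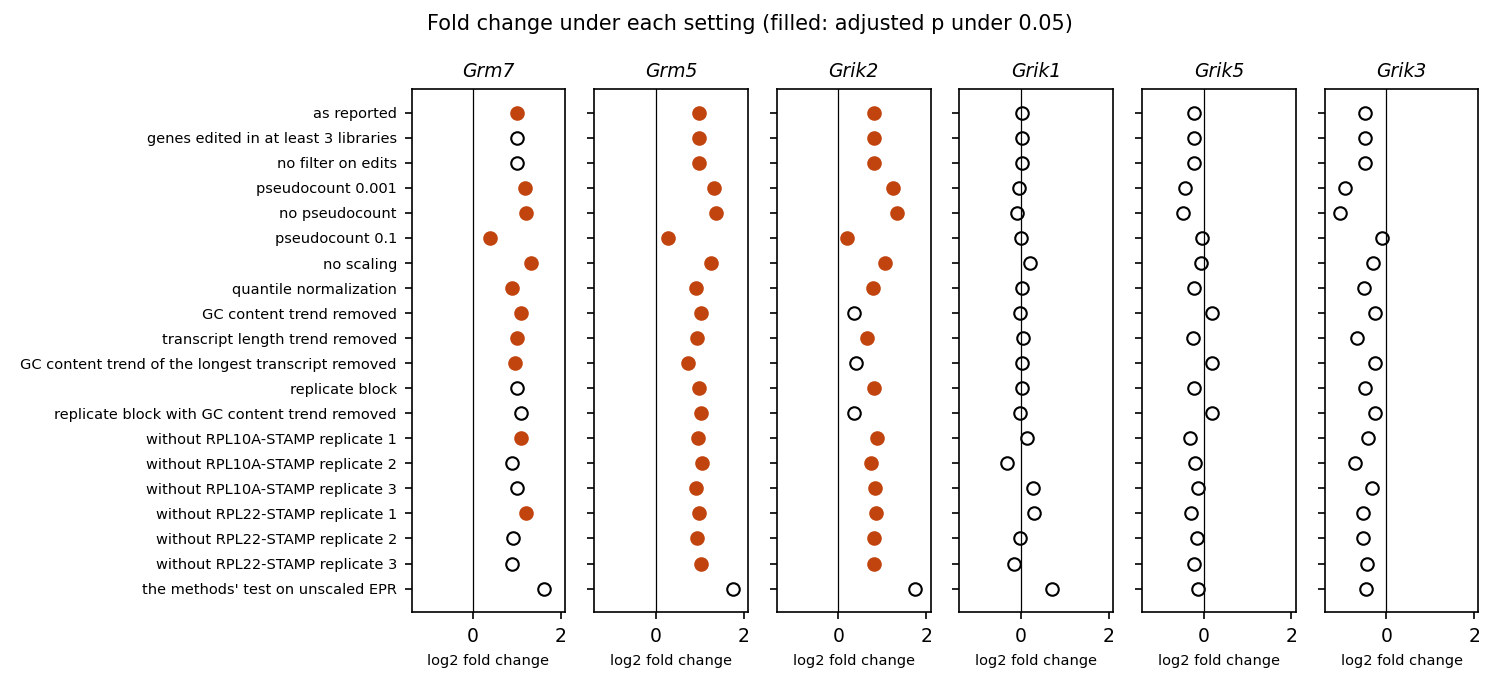
Log2 fold change of each tested receptor gene (columns) as reported and under 19 alternative settings (rows), filled where the adjusted p was under 0.05. *Grm5* passed in every setting but the methods' test, *Grik2* failed in that test and when the GC trend was removed, *Grm7* failed in 9 settings with its direction unchanged, and *Grik1* and *Grik5* have points on both sides of 0.

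Among other metabotropic receptor genes, *Grm4* and *Grm8* were each at 0 in at least 1 library and *Grm6*, known from retina, was at 0 in all 6. Genes that work with the receptors were taken from lists of auxiliary subunits, Homer proteins, G proteins and effectors, scaffolds, and glutamate supply and uptake. Of these 33 genes 28 were tested, 4 were higher with RPL10A-STAMP, 2 were higher with RPL22-STAMP and 22 did not pass. The median log2 fold change of the 28 was 0.10. The share called over all 8046 tested genes was 14.3%, and whether these 28 genes exceed it was not tested. The calls named below are therefore those of single genes. *Neto2*, an auxiliary subunit of kainate receptors, was 0.63 higher on the log2 scale (limma adjusted p = 0.0303), and its relative *Neto1* had a value of 0.49 without passing (limma adjusted p = 0.143).

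*Homer1*, which encodes the scaffold that ties mGluR5 to its postsynaptic partners, had EPR of 0.0495, 0.0591 and 0.0530 in the RPL10A-STAMP libraries and 0.0110, 0.0218 and 0.0131 in those of RPL22-STAMP. Its libraries did not overlap, and its log2 fold change of 1.09 (SE 0.156, limma adjusted p = 0.00688) was close to that of *Grm5*. *Plcb1*, for the phospholipase C downstream of Gq-coupled receptors, was also higher with RPL10A-STAMP (0.67, limma adjusted p = 0.0169), as was *Slc17a6*, for the vesicular glutamate transporter VGLUT2 (1.48, limma adjusted p = 0.0185). The 2 genes higher with RPL22-STAMP were scaffolds. *Shank1*, which binds Homer in the postsynaptic density, had a log2 fold change of -1.19 (SE 0.150, limma adjusted p = 0.00507), and *Grip2*, a PDZ-domain protein, one of -0.89 (SE 0.224, limma adjusted p = 0.0400). Within the mGluR5 scaffold *Homer1* and *Shank1* thus passed in opposite directions, while *Shank2*, *Shank3* and *Homer2* did not pass.

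The AMPA receptor subunits included genes that passed and genes that did not. Of the 4 AMPA receptor subunit genes all were tested and 2, *Gria2* (0.73, limma adjusted p = 0.0172) and *Gria3* (0.72, limma adjusted p = 0.0153), were higher with RPL10A-STAMP. Of the 7 NMDA receptor subunit genes 3 were tested and 0 passed in the limma fit, nor did any reach an unadjusted p under 0.05 there, against 1 of the 3 by the methods' test. The share called over all tested genes was 14.3%. *Grin2d* lay outside the test, with EPR of 0.0155, 0 and 0.00889 in the RPL10A-STAMP libraries. Its RPL22-STAMP libraries, at 0.0188, 0.0323 and 0.0165, all lay above these. Such a separation was seen after scaling in 37.1% of tested genes. Medians were 0.42 for the AMPA and 0.12 for the NMDA subunits, and the differences between families were not tested.

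Profiles most like those of the receptor genes at both ends were found by the root mean square distance of the log2 scaled values over the 6 libraries. For *Grm7* they were *Zdhhc15* (distance 0.194), *Slc38a9* (0.205) and *Dstn* (0.218), and for *Grik3* *Prex1* (0.126), *Uros* (0.129) and *Cdk5* (0.150).

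Neuronal markers were present, with all 6 excitatory and all 6 general neuronal marker genes edited in every library. The summed EPR of the excitatory markers was 0.141 to 0.210 with RPL10A-STAMP, above its range of 0.0700 to 0.0832 in the RPL22-STAMP libraries. That of the 6 inhibitory markers ran the other way, 0.0431 to 0.0514 against 0.0636 to 0.0752. Single markers carried these sums, and 1 of 4 tested inhibitory markers passed in limma. The ratio of mean EPR, RPL10A-STAMP over RPL22-STAMP, was 0.518 for *Gad1*, 0.651 for *Gad2* and 0.247 for *Slc32a1*, whereas it was 1.03 for *Dlx1*, 0.977 for *Lhx6* and 2.13 for *Sst*. Astrocyte markers were edited too, 5 of 6 in every library, with a summed EPR of 0.196 to 0.278 with RPL10A-STAMP and 0.130 to 0.224 with RPL22-STAMP, and the part of these marker genes' cells in the receptor results was not tested. The 4 endothelial markers were at 0 in all libraries, and of the 6 microglial markers *Csf1r*, *Tmem119* and *P2ry12* were too, with a summed EPR of at most 0.0143 with RPL10A-STAMP and 0.0714 with RPL22-STAMP.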

How the data were processed

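EPR of 6 RNA-seq libraries was used, 3 per variant. The authors processed single-end reads with cutadapt 1.18 (trimming), STAR 2.5.2b (alignment to mm10), SAILOR (C-to-U edits) and featureCounts 1.5.3 (reads of each gene), and deposited the ratio of edits to reads, EPR, which is not scaled between libraries. Their gene annotation is not given in the sources used here. Edit and read counts cannot be recovered from the ratio, so depth per gene is unknown.

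Of 31053 identifiers, 31011 matched the GENCODE mouse annotation of GRCm38. EPR was scaled so that the median over genes edited in all 6 libraries was the same in each, and log2(EPR + 0.01) was fitted with limma 3.58.1 (R 4.3.3) with a variance trend, Benjamini-Hochberg adjustment and a threshold of 0.05. The methods' test, a per-gene two-sided t-test on unscaled EPR, was an alternative. Equal variances and the adjusted threshold were choices made here for it. In the study a t-test on EPR compared BDNF-treated with untreated neurons, and the variants were compared by ANOVA of total edits and mean EPR. The study's figure called EPR changes at p under 0.05 with a cut on fold change. Its statistics section says that EPR was not adjusted, although its account of the BDNF test names a Benjamini-Hochberg correction. At an unadjusted p under 0.05 by the methods' test, 3 of the 6 tested receptor genes passed. Single values were compared by exact permutation. Deviations from the group means were hardly correlated between libraries of the same replicate number (0.0437, 0.0464 and -0.00546). Noise of single genes could hide a shared culture, so these values cannot tell whether the libraries are paired. Coding sequences (GRCm38) were aligned with mafft 7.526. Named genes were all 9 receptor genes, pathway genes that passed, and the 3 genes nearest in profile to the most positive and most negative receptor gene, and genes outside this rule were named after their values were seen. The members and lists were chosen with earlier results of these data known. Some items of the gene lists are not reported here.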

Additional observations from a re-analysis of the deposited data

How the results depend on the processing

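*Grm5*, *Grm7* and *Grik2* kept a positive log2 fold change under all 19 alternatives, and *Grik3* a negative one that never passed. *Grm5* kept its call in 18, *Grik2* in 15 and *Grm7* in 10. The number of receptor genes called was 2 or 3, except for 1 with the replicate block and the GC content trend removed together and 0 by the methods' test. That test called 0 of 8046 genes after adjustment (1996 at unadjusted p under 0.05, among them 3 receptor genes, against 2486 by limma), and its adjusted p was 0.0793 for *Grm5*, 0.0980 for *Grik2* and 0.111 for *Grm7*. Leaving out single libraries gave 2 to 3 receptor genes and 369 to 865 of all genes, against 1149 (369 without RPL10A-STAMP replicate 3, 447 without RPL10A-STAMP replicate 2, 595 without RPL22-STAMP replicate 3).

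Over all genes, 754 were called among those edited in at least 3 libraries, 569 without a filter, 663 with the GC content trend removed, 708 with that of the longest transcript and 227 with the replicate block and the GC trend removed. The replicate block alone left 603, and in it *Grm7* was not called (limma adjusted p = 0.0656). The median of the 6 receptor genes, 0.43, was 0.10 with a pseudocount of 0.1, 0.63 without scaling and 1.17 by the methods' test. Without scaling the median of all genes was 0.18, and the receptor median stood 0.44 above it, as it did with scaling. The value of the methods' test is a log2 ratio of unscaled means without a pseudocount, a different measure. On it the median of all genes was 0.35, and the receptor median stood 0.82 above it.

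Direction turned for *Grik5* with the GC trend removed (0.19, with and without the replicate block) and with that of the longest transcript (0.20). It turned for *Grik1* with a pseudocount of 0.001 (-0.033), without one (-0.083), with the GC trend removed (-0.032, with and without the replicate block), and without RPL10A-STAMP replicate 2 (-0.32), RPL22-STAMP replicate 2 (-0.02) or RPL22-STAMP replicate 3 (-0.17), with a range of -0.32 to 0.29 over the left-out libraries. Apart from the smaller sets of libraries, the causes were not tested. The number of reads behind each EPR is unknown, so how far depth limits each gene cannot be given.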
